A study of Homo sapiens with 3 samples.

Results

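The mRNAs of 10 heat shock proteins and chaperones were measured by RNA-seq in T24, a human bladder (urothelial) carcinoma cell line, after irradiation and after irradiation with knockdown of the deacetylase HDAC6. The genes were HSP90AA1 and HSP90AB1 (HSP90), HSPA1A, HSPA1B and HSPA8 (HSP70), HSPH1 (HSP110), DNAJB1 (HSP40), HSPB1 (HSP27) and the mitochondrial chaperonin genes HSPD1 and HSPE1. They were found by symbol through their Ensembl identifiers, and all 10 were present among the 58381 genes of the count table. The Ctrl library was labelled as empty and as control, the RT library as control cells exposed to radiation, and the RT + shHDAC6 library as HDAC6 knockdown cells exposed to radiation. The dose for the irradiated cells was 10 Gy, and the interval between irradiation and RNA extraction is not given in the sources used here. The knockdown came from a single lentiviral shRNA in puromycin-selected cells. Per the labels and the published methods a pLKO.1 vector served as its control, whereas the published RNA-seq results speak of parental cells. Each condition had 1 library, so that no difference below has a replicate check and p-values could not be computed.

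Total counts were between 35424086 and 41811165 per library, of which the 10 genes together took between 0.706% and 0.748%. HDAC6 was counted 3098 (Ctrl), 2383 (RT) and 2170 (RT + shHDAC6) times, a log2 ratio of -0.20 (-0.28 to -0.11; ranges in parentheses after a value are 95% counting intervals) for RT + shHDAC6 against RT. The targeted mRNA was thus lower in the knockdown library, by less than 1.5-fold. With libraries scaled by their total counts the ratio was -0.11. Among genes with 1000 counts or more, the 5th and 95th percentiles of this comparison were -0.51 and 0.35, so HDAC6 lay well inside them. The paper assessed the knockdown by qPCR and Western blotting, and reported reduced HDAC6 mRNA and protein in shHDAC6 T24 cells relative to control cells. Of 12 urothelial and epithelial markers, 9 were at 1 TPM (the abundance of a transcript per exon length, as a share of its library) or above in each library, whereas the uroplakins UPK1B, UPK2 and UPK3A, markers of differentiated urothelium, stayed at or below 0.323 TPM. Of the 9 epithelial markers with enough counts, 7 were lower in RT than in Ctrl (median log2 ratio -0.46) and 6 were higher in RT + shHDAC6 than in RT (median 0.23), while 3 (KRT7, GATA3 and PPARG) were past 1.5-fold lower in RT + shHDAC6; their summed level, carried by a few keratins, was 539, 540 and 475 TPM in Ctrl, RT and RT + shHDAC6. The summed mesenchymal markers, mainly VIM, stood at 2673, 1822 and 2318 TPM. None of the 4 leukocyte markers reached 1 TPM in any library, whereas all 3 endothelial markers (PECAM1, CDH5 and VWF) did in each, with sums of 13.7, 6.81 and 9.71 TPM, and 2 of them were past 1.5-fold lower in RT than in Ctrl. Of 3 erythroid markers, HBB alone had enough counts, with a log2 ratio of -1.11 for RT against Ctrl. Mitochondrial transcripts took 3.75%, 6.09% and 5.51% of the counts. The part of these shifts in the differences below was not tested. In bulk RNA of a cell line, fewer cells that express a gene and less of its RNA per cell cannot be told apart.

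Chaperones bind unfolded or immature proteins and pass them on in cycles driven by ATP. HSP70 takes up client proteins with the help of J-domain proteins such as DNAJB1 and of nucleotide exchange factors such as HSPH1, HSP90 completes the maturation of kinases, receptors and other signalling proteins, and small heat shock proteins such as HSPB1 hold unfolded proteins without using ATP. HSPD1 and HSPE1 form the folding chamber of the mitochondrial matrix. HSP90 protein is a substrate of the deacetylase HDAC6. HSF1 is the transcription factor that switches on heat shock genes by binding to repeats of a short DNA unit. Neither acetylation nor HSF1 binding was measured in these libraries.

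The heat shock element was searched for in the promoter windows of RefSeq (GRCh38.p14), which run from 250 bases before to 50 bases after a start site; its matches are shown because it is the sequence through which HSF1 acts on such genes. Of 35116 windows, 0.49% held a perfect element of 3 units (GAANNTTCNNGAA or TTCNNGAANNTTC, each being the other read on the opposite strand), and 13.5% held at least 2 units (GAANNTTC or TTCNNGAA, which also lie within the longer element). The 10 genes had 16 windows, and 4 of these, those of HSP90AA1, HSP90AB1, HSPA8 and HSPD1, held the longer element, and 9 (56.2%) held at least 2 units. HSPA1A, HSPA1B, HSPB1 and DNAJB1 had matches of 2 units, and the windows of HSPE1 and HSPH1 had no match, which says only that these letters are not in those windows. The sequences below show the elements in 30 bases of the gene's strand, with the matching letters in capitals. The named position is that of the first capital relative to the start site of the window that holds it. For HSP90AA1, HSP90AB1, HSPD1 and DNAJB1, which had further windows, the most upstream window held no match. Their positions therefore refer to a start site further downstream in the gene.
HSP90AA1, chr14:102087112-102087141, minus strand, position -88: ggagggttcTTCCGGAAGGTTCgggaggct
HSP90AB1, chr6:44247822-44247851, plus strand, position -112: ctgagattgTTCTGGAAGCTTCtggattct
HSPA8, chr11:123062171-123062200, minus strand, position -55: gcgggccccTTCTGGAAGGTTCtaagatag
HSPD1, chr2:197500061-197500090, minus strand, position -245: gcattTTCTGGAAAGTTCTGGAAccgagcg
HSPA1A, chr6:31815426-31815455, plus strand, position -106: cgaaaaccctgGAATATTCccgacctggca
HSPA1B, chr6:31827622-31827651, plus strand, position -105: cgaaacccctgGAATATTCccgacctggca
DNAJB1, chr19:14518456-14518485, minus strand, position -77: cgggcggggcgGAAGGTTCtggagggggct
HSPB1, chr7:76302480-76302509, plus strand, position -182: ccttaacgagaGAAGGTTCcagatgagggc

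HSP90AB1 had a second match of 3 units in the same window, at position -165, and HSPA8 a second one at position -230. The match in HSPD1 spans 18 bases, in which 4 units follow each other. The windows of HSPA1A and HSPA1B were identical at 92.0% of the aligned positions. A match is a description of the sequence and does not show that HSF1 was bound in these cells.

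Per exon length, the mRNAs of the HSP90 genes and of HSPA8 were the most abundant of the 10 in every library. HSP90AB1, the constitutive HSP90, stood at 3710 (Ctrl), 3478 (RT) and 2907 TPM (RT + shHDAC6). HSP90AA1, the stress-inducible HSP90, stood at 1498, 1354 and 1550 TPM, and HSPA8, the constitutive HSP70, at 1406, 1649 and 1593 TPM. With this length HSP90AB1 was first in all 3 libraries, while HSP90AA1 and HSPA8 changed places between Ctrl and the irradiated libraries. With the longest transcript as the length, HSPA8 stood at 2182 TPM and HSP90AA1 at 1605 TPM in Ctrl, and HSPA8 was first in RT + shHDAC6, at 2526 TPM against 2443 TPM for HSP90AB1. The order of these 3 genes thus rests on the choice of length.

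HSPD1 followed at 386, 376 and 407 TPM. The small heat shock protein gene HSPB1 stood at 341, 207 and 191 TPM and HSPA1A at 217, 265 and 218 TPM, so that HSPB1 was above HSPA1A in Ctrl and below it in both irradiated libraries. HSPH1 stood at 183, 149 and 181 TPM, HSPA1B at 118, 182 and 141 TPM, and DNAJB1 at 51.7, 60.4 and 58.4 TPM in Ctrl, RT and RT + shHDAC6. The place of HSPH1 also rested on the length. With the longest transcript it was above HSPA1A in Ctrl (215.5 against 160.5 TPM) and in RT + shHDAC6 (217.9 against 164.8 TPM). In RT it was then above HSPA1B (181.4 against 138.5 TPM). HSPE1 was last, at 14.0, 19.4 and 18.2 TPM. TPM values are shares of a library, so between libraries they do not carry the TMM scaling used for the ratios below.

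**Figure D1:**
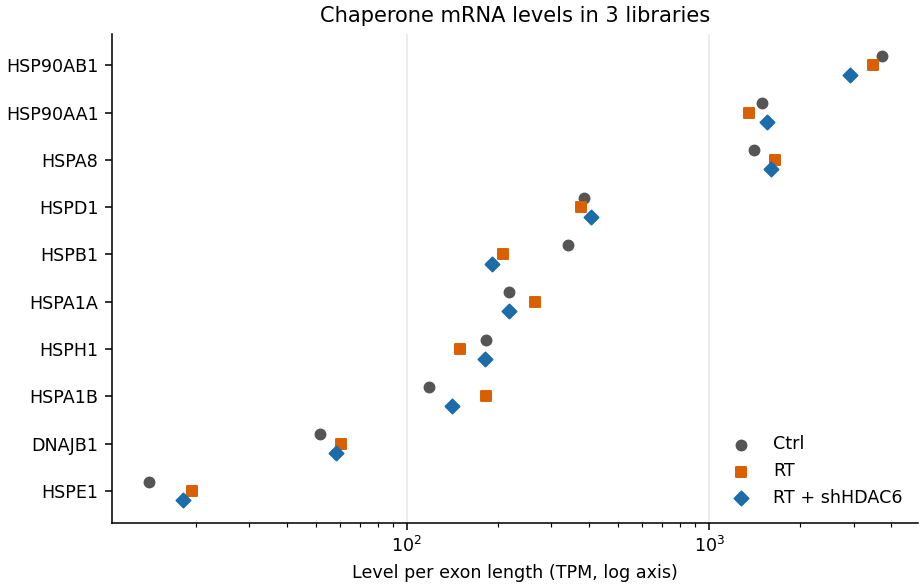
Level per exon length (TPM, log axis) of the 10 genes in the Ctrl (circles), RT (squares) and RT + shHDAC6 (diamonds) libraries, 1 point per library. HSP90AB1 lies highest in all 3 libraries and HSPE1 lowest, and HSPB1 has the widest gap between Ctrl and the irradiated libraries in the lower direction.

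To learn how irradiation alone changed the chaperone mRNAs, RT was compared with Ctrl. The stress-inducible HSP70 genes HSPA1A and HSPA1B and the chaperonin gene HSPE1 were higher in RT by more than 1.5-fold, the constitutive HSPA8 and the J-domain gene DNAJB1 lay just under that limit, the HSP90 genes and HSPH1 were nearly level, and HSPB1 was lower. Of the 10 genes, 3 were past 1.5-fold higher and 0 past 1.5-fold lower. Among the 20267 genes whose higher library had 10 counts or more, 14.4% were past 1.5-fold higher and 20.3% lower, and among the 7588 with 1000 counts or more, 18.1% and 5.26%. The median log2 ratio of the 10 genes was 0.41, against -0.057 for the former and 0.094 for the latter group of genes. In the comparison of RT with Ctrl, scaling by library totals in place of TMM lowers every log2 ratio by 0.22, and then 1 of the 10 genes (HSPA1B) was past 1.5-fold higher and 1 (HSPB1) lower. The share of higher genes among all genes past 1.5-fold was 41.4% with TMM and 21.0% with library totals.

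HSPA1B (chromosome 6, 31827738 to 31830254, GRCh38) was counted 2752 (Ctrl), 3940 (RT) and 2970 (RT + shHDAC6) times. Its RT library was the highest of the 3, with a log2 ratio against Ctrl of 0.95 (0.88 to 1.02), or 1.94-fold. This was the widest difference among the 10 genes, and 93.9% of the genes with 1000 counts or more had a lower ratio. HSPA1A (chromosome 6, 31815543 to 31817946), its neighbour and near-identical copy, had 4843, 5470 and 4382 counts, a log2 ratio of 0.61 (0.55 to 0.67) for RT against Ctrl. At 1.53-fold HSPA1A was just past the limit; its interval reached below it, and its log2 ratio was 0.55 with upper quartile scaling and 0.39 with library totals, under the limit of 0.585.

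HSPA8 (chromosome 11, 123057489 to 123063230), which folds newly made proteins in unstressed cells, was counted 63243 (Ctrl), 68586 (RT) and 64541 (RT + shHDAC6) times. Its log2 ratio for RT against Ctrl was 0.55 (0.54 to 0.57), or 1.47-fold. DNAJB1 (chromosome 19, 14514769 to 14560391), the J-domain partner that delivers clients to HSP70, had 3925, 4243 and 3996 counts and a log2 ratio of 0.55 (0.48 to 0.61), or 1.46-fold. Both were above Ctrl under each of the 4 scalings and, with median-of-ratios scaling, past 1.5-fold (0.61 and 0.61). HSPH1 (chromosome 13, 31134973 to 31162388), the HSP110 that recharges HSP70 with ATP, had 14205, 10752 and 12657 counts. Its log2 ratio for RT against Ctrl was 0.033 (-0.0029 to 0.070), and it ranged from -0.18 with library totals to 0.092 with median-of-ratios scaling, so its direction was not settled.

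HSP90AA1 (chromosome 14, 102080742 to 102139699) was counted 70800 (Ctrl), 59200 (RT) and 65991 (RT + shHDAC6) times. The log2 ratio for RT against Ctrl was 0.18 (0.16 to 0.19), which became -0.041 with library totals. HSP90AB1 (chromosome 6, 44246166 to 44253888) had 102539, 88919 and 72369 counts, and its ratio was 0.23 (0.22 to 0.24), or 0.012 with library totals. For both HSP90 genes the difference between RT and Ctrl was about as wide as the shift of 0.22 between these scalings.

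HSPB1 (chromosome 7, 76302673 to 76304295), which binds unfolded proteins and actin filaments, was counted 5131 (Ctrl), 2887 (RT) and 2590 (RT + shHDAC6) times. It was the sole member with a lower level in RT under TMM, with a log2 ratio of -0.39 (-0.46 to -0.33), and stayed lower under all 4 scalings, between -0.61 and -0.34. HSPD1 (chromosome 2, 197486584 to 197516737) had 27343, 24589 and 25921 counts, with a log2 ratio of 0.28 (0.26 to 0.31) for RT against Ctrl. HSPE1 (chromosome 2, 197500140 to 197503449), its partner on the opposite strand, had 237, 304 and 277 counts, with a log2 ratio of 0.79 (0.54 to 1.05). Its interval reached below 1.5-fold, its ratio was 0.58 with library totals, just under the limit, and the low counts of HSPE1 gave it the widest interval of the 10 genes.

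**Figure D2:**
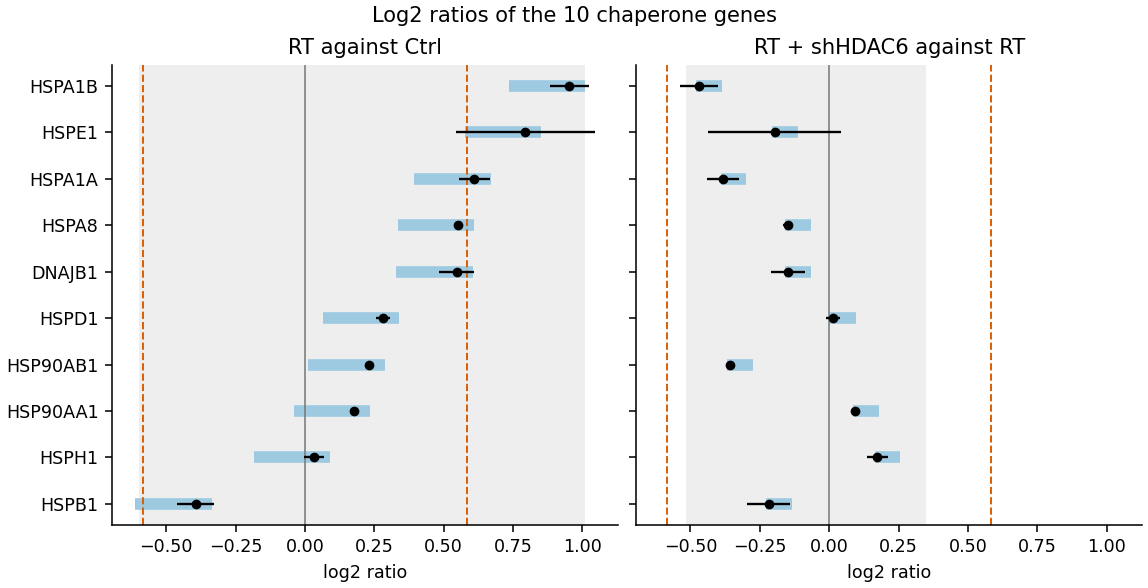
Log2 ratio of each gene (x axis) for RT against Ctrl (left) and RT + shHDAC6 against RT (right); black points are the TMM-scaled values with 95% counting intervals, blue bars the range over 4 scalings and another count added before the log, dashed lines 1.5-fold, and the grey band the 5th to 95th percentile of genes with at least 1000 counts. HSPA1B, HSPE1 and HSPA1A lie to the right of the 1.5-fold line on the left, and no gene lies past it on the right.

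To see what knockdown of HDAC6 added in irradiated cells, RT + shHDAC6 was compared with RT. The same single RT library was compared with Ctrl above, so noise in it would move the ratios of both comparisons in opposite directions. Such noise cannot be told apart from an effect of the knockdown here. No member was past 1.5-fold in either direction: the inducible HSP70 genes and HSP90AB1 had the lowest ratios, HSPH1 and HSP90AA1 had small positive ones, and HSPD1 was level. In this comparison 9.79% of 19013 genes with at least 10 counts were past 1.5-fold higher and 9.72% lower, whereas the 6995 genes with 1000 counts or more had 1.17% and 3.45%. The median log2 ratio of the 10 genes was -0.17, against -0.0034 and -0.023 for these groups of genes. Of the 10 genes, 7 had a ratio below 0 and 3 above 0, and each kept its sign under the 4 scalings.

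HSPA1B had the lowest ratio of the 10, with a log2 ratio of -0.47 (-0.54 to -0.40), or 0.722-fold; 6.08% of the genes with 1000 counts or more lay lower. HSPA1A followed at -0.38 (-0.44 to -0.32). HSP90AB1, at 88919 counts in RT and 72369 in RT + shHDAC6, had a log2 ratio of -0.36 (-0.37 to -0.34), or 0.780-fold, and 10.5% of these genes lay lower. HSP90AA1, at 59200 and 65991 counts, had a log2 ratio of 0.095 (0.079 to 0.11). The inducible and the constitutive HSP90 gene thus lay on opposite sides of 0, and did so under each scaling, from 0.085 to 0.18 for HSP90AA1 and from -0.37 to -0.28 for HSP90AB1. HSPH1 had the highest ratio, 0.17 (0.14 to 0.21).

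HSPA8 and DNAJB1 had nearly the same log2 ratio of RT + shHDAC6 against RT, -0.15 (-0.17 to -0.13) and -0.15 (-0.21 to -0.086). HSPB1 had a ratio of -0.22 (-0.30 to -0.14). The mitochondrial pair lay at 0.014 (-0.011 to 0.039) for HSPD1 and at -0.20 (-0.44 to 0.043) for HSPE1, and both intervals include 0. With its pseudogenes added, HSPE1 had a ratio of -0.23 (-0.42 to -0.041), an interval below 0. Whether the counting interval of HSPE1 includes 0 thus depends on how its copies are counted. Such an interval does not cover variation between replicate libraries.

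The comparison of RT + shHDAC6 with Ctrl shares a library with each of the others and gives the distance that remained from unirradiated cells. HSPE1 was past 1.5-fold higher, with a log2 ratio of 0.60 (0.34 to 0.85), and HSPB1 past 1.5-fold lower, with a ratio of -0.61 (-0.68 to -0.54). HSPE1 was under the limit with library totals, upper quartile scaling (0.57) or its pseudogenes added (0.19), and HSPB1 with median-of-ratios scaling (-0.56). Of 20374 genes with at least 10 counts, 13.9% were past 1.5-fold higher and 19.8% lower, whereas the 7616 genes with 1000 counts or more had 13.8% and 7.16%. HSPA1B had a log2 ratio of 0.48 (0.41 to 0.56) and HSPA1A of 0.23 (0.17 to 0.29). HSPA8 lay at 0.40 (0.39 to 0.42), DNAJB1 at 0.40 (0.33 to 0.46), HSPD1 at 0.30 (0.27 to 0.32), HSP90AA1 at 0.27 (0.26 to 0.29) and HSPH1 at 0.21 (0.17 to 0.24). HSP90AB1, at -0.13 (-0.14 to -0.12), was together with HSPB1 the other member below Ctrl. The share of higher genes among all genes past 1.5-fold was 41.1% here, and 27.9% with library totals.

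Ratios between members of the same library do not depend on the scaling. Per HSP90AB1 count there were 0.690 HSP90AA1 counts in Ctrl (0.684 to 0.697), 0.666 in RT (0.659 to 0.673) and 0.912 in RT + shHDAC6 (0.902 to 0.922). The balance of the HSP90 genes was therefore close in Ctrl and RT and shifted towards the inducible gene in RT + shHDAC6, by 0.45 on the log2 scale relative to RT (interval 0.43 to 0.48, from the Poisson error of the counts). Both genes lay inside the 5th to 95th percentile of genes with 1000 counts or more in that comparison (-0.51 to 0.35). How often pairs of such genes differ this far was not tested. HSPA1A and HSPA1B together had 0.120 counts per HSPA8 count in Ctrl (0.117 to 0.123), 0.137 in RT (0.134 to 0.140) and 0.114 in RT + shHDAC6 (0.111 to 0.117). The counts assigned to the inducible HSP70 genes, relative to HSPA8, were thus highest in RT.

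HSPH1 had 0.225 counts per HSPA8 count in Ctrl (0.221 to 0.229), 0.157 in RT (0.154 to 0.160) and 0.196 in RT + shHDAC6 (0.192 to 0.200). The exchange factor was thus lowest relative to its HSP70 partner in RT, with a log2 change against Ctrl of -0.52 (-0.56 to -0.48). DNAJB1 per HSPA8 hardly moved, at 0.0621, 0.0619 and 0.0619 in Ctrl, RT and RT + shHDAC6; its log2 change was -0.0046 for RT against Ctrl (-0.069 to 0.060) and 0.0012 for RT + shHDAC6 against RT (-0.063 to 0.065). These intervals cover counting error only, since the variation between replicate libraries is not known.

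**Figure D3:**
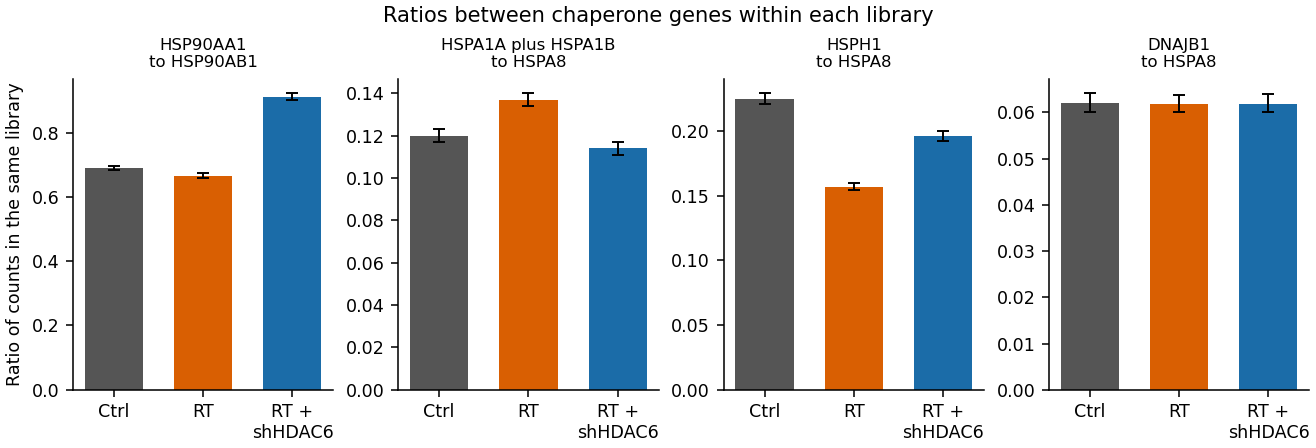
Ratio of the counts of 2 genes, or of HSPA1A plus HSPA1B and HSPA8, within the Ctrl, RT and RT + shHDAC6 libraries (bars from 0, with 95% Clopper-Pearson counting intervals). HSP90AA1 per HSP90AB1 is 0.912 in RT + shHDAC6 against 0.690 and 0.666 in the other libraries, while DNAJB1 per HSPA8 stays between 0.0619 and 0.0621.

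Some of these counts rest on sequence that other genes share. The coding sequences of HSPA1A and HSPA1B, of 1923 bases each, were identical at 1919 positions, and 91.0% and 96.2% of their 100-base windows occurred in a transcript of another gene. HSPA1B had 0.568 (Ctrl), 0.720 (RT) and 0.678 (RT + shHDAC6) counts per HSPA1A count, but how reads that match both were assigned is not stated, so the split between the copies is uncertain. Their sum, with 7595, 9410 and 7352 counts, had a log2 ratio of 0.74 (0.70 to 0.79) for RT against Ctrl and of -0.42 (-0.46 to -0.37) for RT + shHDAC6 against RT. If reads that match both genes were left out in counting, this sum, both TPM levels and the ratio to HSPA8 would be too low. The part of such lost reads was not tested.

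HSPE1 had 58.5% of its 100-base coding windows and 86.0% of its 50-base windows in common with transcripts of other genes, among them the pseudogenes HSPE1P2 and HSPE1P3 and HSPE1-MOB4, a read-through gene with 0 counts in all 3 libraries. Its 26 annotated pseudogenes held 260, 189 and 162 counts, or 52.3%, 38.3% and 36.9% of the sum with HSPE1. With these added, HSPE1 had 497, 493 and 439 counts, and its log2 ratio for RT against Ctrl was 0.42 (0.24 to 0.61), no longer past 1.5-fold. The level of HSPE1 and its distance from HSPD1, which had between 80.9 and 115 counts per HSPE1 count, are therefore uncertain; the part of lost or shared reads in them was not tested.

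For the other members, few counts were assigned to pseudogenes. The pseudogenes of HSP90AA1, HSP90AB1, HSPA8 and HSPD1 held at most 2.7% of the summed counts, and with them HSP90AB1 had a log2 ratio of -0.36 and HSP90AA1 of 0.089 for RT + shHDAC6 against RT. HSPA8, HSPH1 and DNAJB1 shared none of their 100-base windows with another gene. Of the 50-base coding windows, HSPD1 shared 35.6%, HSP90AA1 28.3%, HSP90AB1 23.3%, HSPA8 19.7%, HSPB1 17.3% and DNAJB1 5.87%, and HSPH1 shared none. The part of lost or shared reads was not tested for these genes either. The coding sequences of HSP90AA1 and HSP90AB1 were identical at 75.4% of the aligned positions, and those of HSPA1A and HSPA8 at 73.7%. DNAJB1 overlaps TECR on the opposite strand with 6.41% of its exon length, and HSP90AA1 overlaps WDR20 with 3.87%. HSPE1 and HSPD1 share 135 bases of exon on opposite strands. Whether strand was used in counting is not stated, so reads of such stretches cannot be told apart.

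Other genes of the chaperone system were taken from 10 lists of their roles. With TMM, none of the lists had more than 2 genes past 1.5-fold higher in RT than in Ctrl; with median-of-ratios scaling the HSF1 targets had 3. Among 17 J-domain co-chaperones, 1 was past 1.5-fold higher and 0 lower, with a median log2 ratio of -0.074; with library totals 1 was higher and 3 lower, with a median of -0.29. The gene past the limit was DNAJB12, which acts at the endoplasmic reticulum membrane, with 3256 counts in Ctrl and 4969 in RT and a log2 ratio of 1.05 (0.98 to 1.11). Of 18 HSP90 co-chaperones, 0 were higher and 1 was lower: the glucocorticoid-induced FKBP5, with 410 and 194 counts and a ratio of -0.64 (-0.90 to -0.39), which lay just inside the limit with median-of-ratios scaling (-0.58). Their median of 0.16 became -0.061 with library totals.

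Among 9 further HSP70 and HSP110 genes, 2 were past 1.5-fold higher and 2 lower in RT with TMM, and 0 higher and 3 lower with library totals. HSPA13, with 6494 and 7679 counts, had a log2 ratio of 0.68 (0.63 to 0.72), which became 0.46 with library totals, under the limit. Of the other small heat shock protein genes 4 of 9 had at least 10 counts, and HSPB8, which works with BAG3 in the removal of misfolded proteins, was the one with at least 100 counts past the limit. HSPB8 was counted 133 (Ctrl), 61 (RT) and 139 (RT + shHDAC6) times, with log2 ratios of -0.68 (-1.15 to -0.24) for RT against Ctrl and of 1.12 (0.68 to 1.58) for RT + shHDAC6 against RT. Like HSPB1 it was lower in RT than in Ctrl, but unlike HSPB1 it had a higher level in RT + shHDAC6 than in RT.

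The nucleotide exchange factors had a median log2 ratio of 0.047 for RT against Ctrl, with 1 of 7 past 1.5-fold higher: HSPBP1, with 944 and 1138 counts and a ratio of 0.70 (0.58 to 0.83). With library totals their median was -0.17, and HSPBP1, at 0.49, was no longer past the limit. None of the 14 genes of the chaperonin TRiC and prefoldin was past the limit, and their median of 0.034 became -0.18 with library totals. Of 14 mitochondrial chaperones and proteases, 1 was higher, and the median was 0.32 (0.10 with library totals). That gene, DNAJA3, the J-domain partner of mitochondrial HSP70, had 1980 and 2508 counts and a log2 ratio of 0.78 (0.69 to 0.86), or 0.56 with library totals, under the limit. Proteasome subunits had a median of 0.24 (0.023 with library totals), with PSMD3 as the sole one of 31 past the limit, with 7793 and 9084 counts and a ratio of 0.66 (0.61 to 0.70); with library totals PSMD3 was at 0.44 and none was past it.

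HSF1 was counted 3206 (Ctrl), 3001 (RT) and 2989 (RT + shHDAC6) times, with log2 ratios of 0.34 (0.27 to 0.41) for RT against Ctrl and of -0.068 (-0.14 to 0.0057) for RT + shHDAC6 against RT. HSF2, a related factor, had 1241, 924 and 961 counts and ratios of 0.0098 and -0.0055. On the list of 5 heat shock factors and their binding proteins, no heat shock factor was past 1.5-fold in RT with TMM, and the binding protein HSF2BP was higher, with 26 and 36 counts and a ratio of 0.90 (0.14 to 1.69) whose interval reached well below the limit. Of 18 further heat-inducible targets of HSF1, 2 were past 1.5-fold higher in RT and 1 lower, with a median log2 ratio of 0.092 (-0.13 with library totals). The lower one was HSPB8. SERPINH1, the collagen chaperone HSP47, had the widest difference, with 2815 and 6829 counts in Ctrl and RT and a ratio of 1.71 (1.65 to 1.78). The others on this list lay between -0.68 and 0.65, the higher value being that of HSPA6, an HSP70 gene with 37 and 43 counts whose interval reached -0.016.

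For RT + shHDAC6 against RT, HSPB8 was the sole gene past 1.5-fold on these lists with TMM. BAG1, a nucleotide exchange factor with 1234 and 1928 counts, lay just under the limit at 0.58 (0.48 to 0.69) and was past it with library totals (0.67) and upper quartile scaling, and HSPA12B, with 13 and 20 counts, was past it with library totals (0.62). The list medians lay between -0.12 for the HSF1 targets and 0.30 for the other small heat shock proteins. For the HSP90 co-chaperones the median was -0.010, and for the proteasome -0.052, and both were above 0 with library totals (0.073 and 0.032).

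Among 6275 protein-coding genes with at least 1000 counts in every library, those whose pair of log2 ratios (RT against Ctrl, RT + shHDAC6 against RT) lay nearest to that of HSP90AA1 were ARMC8, PFKP, NAP1L4, DDX24 and HAUS6, at distances between 0.0060 and 0.012 on the log2 scale over 3 libraries. No other of the 10 chaperone genes was among these 5.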

How the data were processed

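After adaptor removal (cutadapt), the authors mapped reads with STAR to GRCh38 (2.6.1a per the submitters' processing notes; the published methods name another version) and counted them on GENCODE 28 genes with featureCounts; the deposited values are raw read counts. Both the labels and the published methods name a stranded library kit, but not the same one. The strand setting of the counting, read length and handling of multi-mapping reads are not given in the sources used here. Symbols and positions came from GENCODE 44, which held 57754 of the 58381 identifiers. Libraries were scaled by TMM (edgeR 4.0.16, R 4.3.3). Log2 ratios used the counts plus 0.5, with 95% Clopper-Pearson intervals (scipy 1.17.1), which cover counting error only. No molecular identifiers to mark PCR copies are mentioned, so these intervals may be too narrow even for counting error. The published analysis used NOISeq; with 1 library per condition its probability rests on simulated noise, so a limit of 1.5-fold was used instead, for genes whose higher library had 10 counts or more. TPM used the union of exons. The ratio code was tested on simulated data. Members, lists and rules were chosen with earlier results of these data known. Named from the lists were HDAC6, HSF1, HSF2, the 5 genes nearest to HSP90AA1, and up to 3 genes per list and comparison with the widest ratios past 1.5-fold and at least 100 counts; HSPA6, HSPA12B, BAG1, HSF2BP, the cell type markers and the genes overlapping or copying a member were added after their values were seen. The ratios DNAJB1 to HSPA8 and HSPA1B to HSPA1A were also added later. Of the list genes, 1 (HSPB11) was not matched. Alternatives covered scaling (totals, upper quartile, median-of-ratios of DESeq2 1.42.0), filters, fold limits, added count, copies and gene length. All 3 value columns were used.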

Additional observations from a re-analysis of the deposited data

How the results depend on the processing

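For RT against Ctrl, where 3 members were past 1.5-fold higher and 0 lower with a median log2 ratio of 0.41, library totals gave 1 higher and 1 lower and a median of 0.20. Median-of-ratios scaling gave 5 higher and a median of 0.47, upper quartile scaling a median of 0.36, a 2-fold limit 0 higher, a limit of 0.32 on the log2 scale 5 higher and 1 lower, and adding pseudogene counts while merging HSPA1A and HSPA1B, which were still past the limit as 1 unit, 1 higher; without HSPA1A and HSPA1B the median was 0.26. For RT + shHDAC6 against RT, library totals moved the median from -0.17 to -0.089, and a limit of 0.32 on the log2 scale gave 3 members lower. For RT + shHDAC6 against Ctrl, with 1 member higher, 1 lower and a median of 0.28, library totals gave 0 higher and a median of 0.15, median-of-ratios scaling 0 lower and a median of 0.33, upper quartile scaling 0 higher, a 2-fold limit 0 higher and 0 lower, a limit of 0.32 on the log2 scale 4 higher, and the same summing 0 higher. No member past 1.5-fold changed its direction under a scaling; for RT against Ctrl, HSP90AA1 and HSPH1, which were not past it, did.

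Over all genes, RT against Ctrl had 2914 higher and 4123 lower genes, against 1667 and 6268 with library totals, 6310 and 10092 without a filter, 1987 and 1271 with at least 100 counts, 952 and 1704 at 2-fold and 5188 and 6782 at 0.32 on the log2 scale. For RT + shHDAC6 against RT, 1861 and 1848 genes became 6852 and 6395, 359 and 637, 772 and 879, and 3547 and 3681 under the last 4 of these settings, and for RT + shHDAC6 against Ctrl, 2824 and 4040 became 6448 and 9690, 1712 and 1484, 973 and 2027, and 5286 and 6540. No replicate could be left out, and no paired analysis was possible because each condition has 1 library. Members other than HSPE1 had at least 2590 counts in each library, so depth is a small limit for them. The variation between cultures is not known, and the choice of scaling also limits these comparisons.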
